A study of Mus musculus with 9 samples.

Results

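Langerhans and dendritic cell genes were followed as 10 members, Cd207, Epcam, Itgax, Fscn1, Cd83, Cd86, Irf8, Irf4, Batf3 and Flt3, taken by symbol from the 54838 genes of the count tables. The 10 were a given list, taken by name and not ranked by a measured value, and each matched 1 row. The list was nevertheless made with earlier results of these data known. RNA of whole mouse ear was read by 3' tag sequencing, which counts each transcript from a fragment near its 3' end. The mice were C57BL/6 and 10 weeks old, and each received 15 µg of minicircle DNA (a small circular expression DNA) by hydrodynamic injection into the tail vein. There were 3 groups of 3 libraries: Mdl-1-/- mice with the IL-23 minicircle, wild-type (WT) mice with the IL-23 minicircle, and WT mice with a minicircle for green fluorescent protein (GFP). No Mdl-1-/- libraries with GFP are among the groups, so between Mdl-1-/- with IL-23 and WT with GFP the genotype and the injected DNA cannot be told apart. MDL-1 is a receptor of myeloid cells encoded by Clec5a. The labels do not say that the libraries of a group came from separate mice, and a p-value therefore speaks of the spread among the libraries, which may be technical.

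Langerhans cells are the antigen-presenting cells of the epidermis; they carry langerin, lie among keratinocytes and hold on to them through adhesion molecules such as EpCAM. Dermal dendritic cells fall into a type that depends on IRF8 and BATF3 and a type that depends on IRF4, and both grow under FLT3 signalling. On maturation, dendritic cells make fascin, CD83 and CD86 and leave the skin for the draining lymph node, where they prime T cells. IL-23 is made largely by dendritic cells and macrophages and drives type 17 inflammation in skin.

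With IL-23 in WT ears, Fscn1, Itgax and Epcam rose, by 6.38-fold, 5.63-fold and 2.13-fold against GFP. In Mdl-1-/- ears with IL-23, Fscn1 was 2.18-fold lower than in WT ears with IL-23, and no other member passed the test in that comparison. Against WT ears with GFP, Mdl-1-/- ears with IL-23 had more Cd207, Epcam, Itgax, Fscn1 and Irf8 RNA. Batf3, Irf4, Flt3 and Cd83 were too low to be tested. In bulk tissue, more cells of a type and more RNA per cell cannot be told apart, and this holds for every value given here.

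Counts are given as read, and levels as CPM, the counts per 1000000 counts of the library after scaling with TMM (trimmed mean of M-values). Library totals ran from 3776188 to 5605713 counts, so that 3 counts, taken as the limit that a count of 0 allows, are 0.535 to 0.794 CPM before TMM scaling. Clec5a itself was read with 5 to 13 counts in the Mdl-1-/- libraries, 11 to 21 in WT libraries with IL-23 and 2 to 10 with GFP; as the labels leave the deleted part unnamed, a tag outside it would check nothing, and groups are called as labelled. A gene was called when its adjusted p (edgeR quasi-likelihood test, Benjamini-Hochberg over 13807 tested genes) was under 0.05. A standard error (SE) belongs to the log2 fold change, and a mean ± SD is over 3 libraries.

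The promoters of the 4 members that the results turn on most are shown first, since 3 of these genes rose with IL-23 in WT and Cd207, the gene of langerin, had its highest values in Mdl-1-/- ears. Each window runs from 250 bases before to 50 bases after the start site of the RefSeq gene on GRCm38.p6 and is written along the gene's own strand. Capitals mark matches to the AP-1 motif TGANTCA (Cd207 and Itgax), to the ETS motif GGAAGT on either strand (Itgax) and to the TATA box TATAAA (Fscn1).
Cd207: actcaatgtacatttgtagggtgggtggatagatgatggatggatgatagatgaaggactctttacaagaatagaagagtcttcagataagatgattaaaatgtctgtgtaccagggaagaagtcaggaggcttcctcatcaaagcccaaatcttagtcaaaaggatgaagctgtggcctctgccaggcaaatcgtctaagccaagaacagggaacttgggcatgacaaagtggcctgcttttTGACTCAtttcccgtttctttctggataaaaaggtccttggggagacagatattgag
Epcam: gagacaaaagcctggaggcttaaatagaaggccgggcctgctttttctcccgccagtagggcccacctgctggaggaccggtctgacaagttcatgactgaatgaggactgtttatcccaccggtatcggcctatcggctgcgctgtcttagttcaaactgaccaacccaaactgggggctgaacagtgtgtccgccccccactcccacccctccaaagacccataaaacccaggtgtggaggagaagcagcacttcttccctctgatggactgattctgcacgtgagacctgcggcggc
Itgax: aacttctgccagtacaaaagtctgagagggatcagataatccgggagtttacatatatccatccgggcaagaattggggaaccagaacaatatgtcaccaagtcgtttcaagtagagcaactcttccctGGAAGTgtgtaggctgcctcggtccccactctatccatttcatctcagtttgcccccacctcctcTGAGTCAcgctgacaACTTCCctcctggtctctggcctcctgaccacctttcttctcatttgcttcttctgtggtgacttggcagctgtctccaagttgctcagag
Fscn1: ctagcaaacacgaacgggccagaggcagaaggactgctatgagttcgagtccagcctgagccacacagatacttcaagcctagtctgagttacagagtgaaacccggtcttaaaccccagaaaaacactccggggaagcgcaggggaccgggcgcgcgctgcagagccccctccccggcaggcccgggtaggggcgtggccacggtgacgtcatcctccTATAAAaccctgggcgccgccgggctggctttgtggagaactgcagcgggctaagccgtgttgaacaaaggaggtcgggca
The windows lie at chr6:83677808-83678107 on the minus strand for Cd207, chr17:87635729-87636028 on the plus strand for Epcam, chr7:128129300-128129599 on the plus strand for Itgax, and chr5:142960105-142960404 on the plus strand for Fscn1. RefSeq windows matched 8 of the 10 members, 9 windows in all because Irf8 has 2; Cd83 and Cd86 are named only. The AP-1 letters stood at positions -7 to -1 from the start site in Cd207 and at -56 to -50 in Itgax, in 2 of the 9 member windows, against 7.81% of all 32851 RefSeq windows. Itgax held the ETS letters at -121 to -116 and, on the other strand, at -41 to -36; they occurred in 3 of the 9 member windows and in 23.8% of all windows. TATAAA stood at -31 to -26 in Fscn1, in 3 member windows, and in 13.6% of all. The letters TTCNNNGAA, bound by STAT factors, were in 2 member windows (Batf3 and Irf8) and in 8.30% of all. Neither the tandem IRF letters GAAANNGAA (8.56% of all windows) nor the joint ETS and IRF letters GGAANNGAA (8.24%) occurred in a member window. Both strands were searched, a match says only that the letters are there, and no motif overlapped another in the 4 windows shown.

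**Figure D1:**
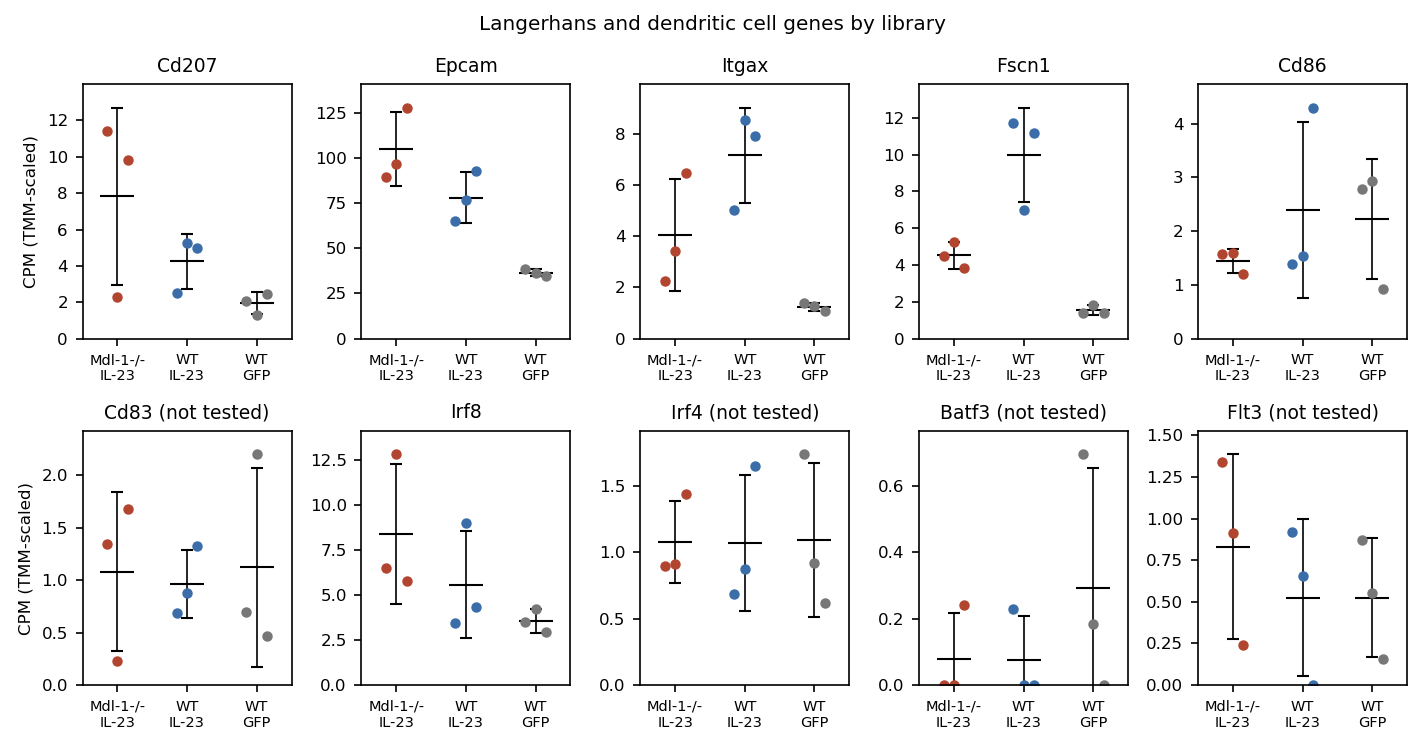
Level of each of the 10 members in every library. The vertical axis is TMM-scaled CPM and starts at 0; points are the 3 libraries of a group, numbered from left to right, horizontal bars are means and error bars are SD. Fscn1 and Itgax have their highest mean in WT ears with IL-23, and Cd207, Epcam and Irf8 in Mdl-1-/- ears with IL-23.

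Cd207 encodes langerin, the C-type lectin that marks Langerhans cells and forms their Birbeck granules, and which a subset of dermal dendritic cells carries too. The gene (ENSMUSG00000034783) lies on chromosome 6 at 83671215 to 83677857, minus strand, GRCm38. Its level was 11.4, 2.29 and 9.82 CPM in Mdl-1-/- libraries with IL-23 (51, 10 and 41 counts), 2.52, 5.25 and 4.96 CPM in WT libraries with IL-23 (11, 24 and 15 counts), and 2.09, 1.29 and 2.47 CPM in WT libraries with GFP (12, 7 and 16 counts). Mdl-1-/- libraries 1 and 3 stood above all WT libraries, while library 2 lay within the range of the GFP libraries. Cd207 was 3.94-fold higher in Mdl-1-/- ears with IL-23 than in WT ears with GFP (log2 fold change 1.98, SE 0.50, edgeR adjusted p = 0.0148), with groups that overlapped. That call was lost without Mdl-1-/- library 1 (adjusted p = 0.0524) and with limma voom in place of edgeR (0.0699). Between Mdl-1-/- and WT ears with IL-23 the log2 difference was 0.89 (SE 0.48, edgeR adjusted p = 0.214), not past the threshold. Without Mdl-1-/- library 2 that difference was 1.34 and passed (edgeR adjusted p = 0.0249), so 1 library decides it. WT libraries with IL-23 did not overlap those with GFP, 2.52 to 5.25 against 1.29 to 2.47 CPM, yet the log2 difference of 1.09 (SE 0.54) missed the threshold (edgeR adjusted p = 0.118). It passed without Mdl-1-/- library 2, which enters only the shared estimate of spread (edgeR adjusted p = 0.0347), with only the 2 groups in the fit (0.0443), and with no filter on counts (0.0468).

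Epcam encodes the epithelial cell adhesion molecule, which Langerhans cells share with hair follicle epithelium. The gene (ENSMUSG00000045394) lies on chromosome 17 at 87635979 to 87651129, plus strand. Its level was 89.7, 96.7 and 128 CPM in Mdl-1-/- ears with IL-23 (401, 423 and 535 counts), 64.9, 76.6 and 92.9 CPM in WT ears with IL-23 (283, 350 and 281 counts), and 38.5, 36.4 and 34.6 CPM in WT ears with GFP (221, 198 and 224 counts). Every library with IL-23 was above every library with GFP, and Mdl-1-/- and WT libraries with IL-23 overlapped by 1 library each. Epcam rose 2.13-fold with IL-23 in WT (log2 fold change 1.09, SE 0.17, edgeR adjusted p = 0.000119) and was 2.87-fold higher in Mdl-1-/- ears with IL-23 than in WT ears with GFP (1.52, SE 0.17, adjusted p = 3.15e-05). Both calls held under all 19 alternatives in which it was fitted. Its log2 difference between Mdl-1-/- and WT ears with IL-23 was 0.43 (SE 0.17, edgeR adjusted p = 0.0845), and it passed the threshold when only library totals were used for scaling (log2 difference 0.60, adjusted p = 0.0211).

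Other epithelial genes moved between the same groups. The 5 keratinocyte markers (Krt14, Krt5, Krt1, Krt10 and Trp63, none at 0 in all libraries) summed to 22700 to 25300 CPM in Mdl-1-/- ears with IL-23, 16800 to 19300 CPM in WT ears with IL-23 and 7660 to 10000 CPM in WT ears with GFP. Between genotypes under IL-23 they went both ways, with 1 called higher, 1 lower and 3 not called, beside 7.58% higher and 10.1% lower of all tested genes. Krt10 averaged 14900 CPM in Mdl-1-/- and 5040 CPM in WT ears (edgeR adjusted p = 0.000928). Krt14 averaged 5910 against 9530 CPM (edgeR adjusted p = 0.0175, lost under 3 of 19 alternatives). The 6 hair follicle and sebaceous markers (Krt15, Lgr5, Krt79, Lrig1, Sox9 and Lhx2, none at 0 in all libraries) went the other way against GFP: 904 to 1830 CPM in Mdl-1-/- ears with IL-23, 654 to 861 CPM in WT ears with IL-23 and 3320 to 4180 CPM in WT ears with GFP. Among them 4 of 6 fell with IL-23 in WT, beside 21.7% of all tested genes. Sox9, a factor of follicle stem cells, fell by 1.32 on the log2 scale (SE 0.17, edgeR adjusted p = 1.77e-05). The part that epithelial cells play in the Epcam result was not tested.

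Itgax encodes CD11c, the integrin chain that marks dendritic cells and is also found on some macrophages and neutrophils. The gene (ENSMUSG00000030789) lies on chromosome 7 at 128129547 to 128150657, plus strand. Its level was 2.24, 3.43 and 6.47 CPM in Mdl-1-/- ears with IL-23 (10, 15 and 27 counts), 5.04, 8.54 and 7.94 CPM in WT ears with IL-23 (22, 39 and 24 counts), and 1.39, 1.29 and 1.08 CPM in WT ears with GFP (8, 7 and 7 counts). All libraries with IL-23 were above all libraries with GFP, and Mdl-1-/- library 3 lay within the range of the WT libraries with IL-23. Itgax rose 5.63-fold with IL-23 in WT (log2 fold change 2.49, SE 0.43, edgeR adjusted p = 0.000265). It was 3.18-fold higher in Mdl-1-/- ears with IL-23 than in WT ears with GFP (1.67, SE 0.45, edgeR adjusted p = 0.0183), a call lost without Mdl-1-/- library 3 (0.109), without GFP library 3 (0.069) and with limma voom (0.0527). The log2 difference between Mdl-1-/- and WT ears with IL-23 was -0.83 (SE 0.38, edgeR adjusted p = 0.146).

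Markers of other myeloid cells varied too. The 5 neutrophil markers (Csf3r, Cxcr2, Retnlg, Mmp9 and Ly6g, none at 0 in all libraries) summed to 38.1 to 73.6 CPM in Mdl-1-/- ears with IL-23, 80.2 to 107 CPM in WT ears with IL-23 and 13.1 to 25.1 CPM in WT ears with GFP. All 4 that were tested rose with IL-23 in WT, beside 22.9% of all tested genes. Between genotypes under IL-23, 2 of these 4 (Csf3r and Retnlg) were lower in Mdl-1-/- ears, beside 10.1% of all tested genes. Those calls were lost under 3 of 18 and 4 of 19 alternatives. Against WT ears with GFP, 1 of the 4 (Cxcr2) was higher in Mdl-1-/- ears with IL-23, beside 10.2%. The 11 macrophage and monocyte markers summed to 95.6 to 112 CPM in Mdl-1-/- ears with IL-23, 54.5 to 111 CPM in WT ears with IL-23 and 59.6 to 106 CPM in WT ears with GFP. Of these, 1 of 9 tested rose with IL-23 in WT. edgeR called none in Mdl-1-/- against WT under IL-23 (1 at an unadjusted p under 0.05, 0 by DESeq2 and 1 by limma voom), beside 17.7% of all tested genes. It called none in Mdl-1-/- IL-23 against WT GFP (3 unadjusted, 1 by DESeq2 and 1 by limma voom), beside 17.1%. The part of neutrophils and macrophages in the Itgax result was not tested.

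Fscn1 encodes fascin, the actin-bundling protein that mature dendritic cells use to form their long processes. The gene (ENSMUSG00000029581) lies on chromosome 5 at 142960343 to 142973185, plus strand. Its level was 4.47, 5.26 and 3.83 CPM in Mdl-1-/- ears with IL-23 (20, 23 and 16 counts), 11.7, 7.01 and 11.2 CPM in WT ears with IL-23 (51, 32 and 34 counts), and 1.39, 1.84 and 1.39 CPM in WT ears with GFP (8, 10 and 9 counts). The 3 groups did not overlap. Fscn1 rose 6.38-fold with IL-23 in WT (log2 fold change 2.67, SE 0.34, edgeR adjusted p = 2.02e-05). It was 2.18-fold lower in Mdl-1-/- ears than in WT ears under IL-23 (log2 fold change -1.13, SE 0.31, edgeR adjusted p = 0.0206), and 2.92-fold higher in Mdl-1-/- ears with IL-23 than in WT ears with GFP (1.55, SE 0.36, adjusted p = 0.00823). The genotype difference was past the threshold by a small margin: with WT IL-23 library 1 left out its edgeR adjusted p was 0.0684, with library 3 of that group 0.0736, and with Mdl-1-/- library 1 or 3 left out 0.0646 or 0.076. The log2 difference stayed between -1.32 and -0.97 over all 18 alternatives. In the authors' deposited table of this comparison, whose fold change runs the other way (WT over Mdl-1-/-), Fscn1 has a log2 fold change of 1.08 and a false discovery rate of 0.047. Fascin is also made outside the immune system, among others by endothelium and nerve; the 5 endothelial markers (none at 0 in all libraries) summed to 10.7 to 23.9 CPM in Mdl-1-/- ears with IL-23, 14.2 to 28.9 CPM in WT ears with IL-23 and 25.2 to 36.4 CPM in WT ears with GFP.

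Cd86 and Cd83 are the other maturation genes. Cd86 encodes a B7 ligand that costimulates T cells through CD28; it lies on chromosome 16 at 36603869 to 36666081, minus strand. Its level was 1.57, 1.60 and 1.20 CPM in Mdl-1-/- ears with IL-23 (7, 7 and 5 counts), 1.38, 1.53 and 4.30 CPM in WT ears with IL-23 (6, 7 and 13 counts), and 2.78, 2.94 and 0.928 CPM in WT ears with GFP (16, 16 and 6 counts). The groups overlapped in each comparison, with library 3 of WT IL-23 high and library 3 of GFP low within their groups. No call was made: the log2 difference was 0.05 (SE 0.54, edgeR adjusted p = 0.951) for IL-23 against GFP in WT, and its sign turned under 4 alternatives, upper-quartile scaling and library totals among them; it was -0.62 (SE 0.59, adjusted p = 0.498) between Mdl-1-/- and WT ears with IL-23. Between Mdl-1-/- ears with IL-23 and WT ears with GFP it was -0.58 (SE 0.56, edgeR adjusted p = 0.521). Cd83, a surface protein of mature dendritic cells that holds MHC class II and CD86 at the membrane, had 6, 1 and 7 counts in Mdl-1-/- ears with IL-23, 3, 4 and 4 in WT ears with IL-23, and 4, 12 and 3 in WT ears with GFP. The ratio of its pooled CPM was 1.17 between Mdl-1-/- and WT ears with IL-23 (exact 95% interval 0.493 to 2.85) and 0.855 for IL-23 against GFP in WT (0.368 to 1.89), both covering counting error only. Changes of up to about those bounds were not detectable for Cd83 at this depth.

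Irf8 encodes the interferon regulatory factor that type 1 conventional and plasmacytoid dendritic cells depend on; monocytes and B cells use it as well. The gene (ENSMUSG00000041515) lies on chromosome 8 at 120736358 to 120756694, plus strand. Its level was 6.49, 12.8 and 5.75 CPM in Mdl-1-/- ears with IL-23 (29, 56 and 24 counts), 3.44, 8.98 and 4.30 CPM in WT ears with IL-23 (15, 41 and 13 counts), and 3.48, 4.22 and 2.94 CPM in WT ears with GFP (20, 23 and 19 counts). Library 2 was the highest of its group in all 3 groups, and all Mdl-1-/- libraries were above all GFP libraries. Irf8 was 2.36-fold higher in Mdl-1-/- ears with IL-23 than in WT ears with GFP (log2 fold change 1.24, SE 0.39, edgeR adjusted p = 0.0392). More alternatives ended this call than any other of a member, 6 of 19: its adjusted p was 0.25 without Mdl-1-/- library 2, 0.0931 without GFP library 1, 0.134 without GFP library 3, 0.0567 with upper-quartile scaling, 0.0828 with library totals and 0.0536 with limma voom. The log2 difference was 0.56 (SE 0.39, edgeR adjusted p = 0.34) between Mdl-1-/- and WT ears with IL-23, and 0.68 (SE 0.41, adjusted p = 0.191) for IL-23 against GFP in WT. The 8 B cell markers came to 7, 6 and 10 counts over the Mdl-1-/- IL-23, WT IL-23 and GFP groups, with 3 of them, Cd79a included, at 0 in all libraries.

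Irf4, Batf3 and Flt3 were near the limit of detection. Irf4, the factor of type 2 conventional dendritic cells, had 4, 4 and 6 counts in Mdl-1-/- ears with IL-23, 3, 4 and 5 in WT ears with IL-23, and 10, 5 and 4 in WT ears with GFP. Batf3, the AP-1 family partner of IRF8, had 0, 0 and 1 counts, 1, 0 and 0 counts, and 4, 1 and 0 counts in those same groups. Flt3, the receptor that maintains dendritic cells in tissue, had 6, 4 and 1 counts, 4, 3 and 0 counts, and 5, 3 and 1 counts in them. The groups overlapped for all 3 genes. Between Mdl-1-/- and WT ears with IL-23 the ratio of pooled CPM was 1.07 for Irf4 (exact 95% interval 0.460 to 2.54) and 1.44 for Flt3 (0.511 to 4.39). For Batf3, with 1 count in each of these groups, the interval ran from 0.0117 to 72.1, so its level could not be compared at this depth. The annotated spans of Flt3 and of Irf8 overlap another gene, the antisense Gm26597 and the same-strand Gm20388, in neither case at exons.

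Over the tested members, 3 of 6 rose and none fell with IL-23 in WT, where 44.7% of all tested genes were called, 22.9% as higher and 21.7% as lower. The median log2 fold change of the 6 was 1.09, beside -0.04 over all tested genes. Between Mdl-1-/- and WT ears with IL-23, 1 of 6 was lower and none higher, where 17.7% of all tested genes were called, 10.1% as lower and 7.58% as higher; the median was -0.10, beside 0.00 over all tested genes. At an unadjusted edgeR p under 0.05, 2 of 6 were lower and 1 higher in that comparison, and DESeq2 and limma voom each called 1 as lower and 0 as higher. Between Mdl-1-/- ears with IL-23 and WT ears with GFP, 5 of 6 were higher and none lower, where 17.1% of all tested genes were called, 10.2% as higher and 6.93% as lower; the median was 1.53, beside -0.02. The comparisons share libraries, so their values stand side by side and are not independent. A gene read in 1 group only can pass the count filter through that group, so these counts describe the 6 tested genes and not the 10 members. Under IL-23 the members differed in sign between genotypes: Cd207, Epcam and Irf8 had higher means in Mdl-1-/- ears and Itgax, Fscn1 and Cd86 had higher means in WT ears, of which the test called Fscn1 alone.

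**Figure D2:**
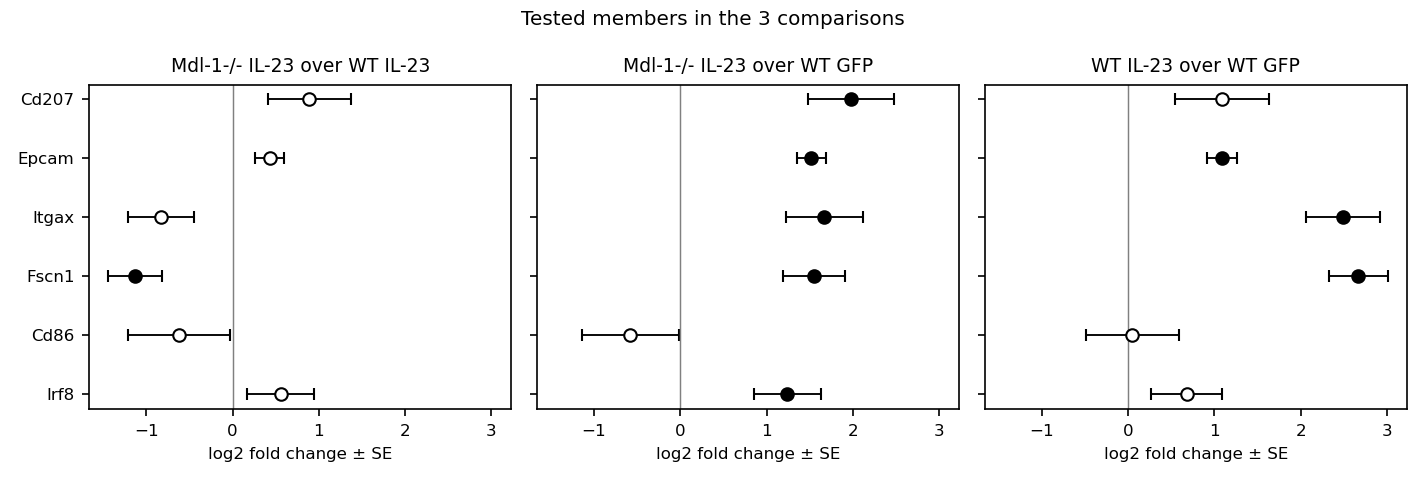
Log2 fold change of the 6 tested members in each comparison. Points are edgeR estimates, bars are ± SE, and filled points have an adjusted p under 0.05; each title names the group on top of the fold change first. In Mdl-1-/- over WT under IL-23, Fscn1 at -1.13 is the only filled point.

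Each tested member was also set against transcripts that all leukocytes carry, as log2 of its CPM plus a pseudocount of 1 minus log2 of the summed CPM of Ptprc, Cd52, Laptm5, Coro1a and Cd53. That sum was 83.0, 83.9 and 76.9 CPM in Mdl-1-/- ears with IL-23, 72.7, 107 and 131 CPM in WT ears with IL-23 and 41.8, 54.5 and 45.2 CPM in WT ears with GFP. Both groups with IL-23 were above GFP in every library. Per leukocyte transcript, Epcam was at 0.13, 0.22 and 0.75 in Mdl-1-/- ears with IL-23, at -0.14, -0.47 and -0.48 in WT ears with IL-23 and at -0.08, -0.55 and -0.34 in WT ears with GFP. Mdl-1-/- libraries were thus above both WT groups, by 0.73 and 0.69 on the log2 scale (exact permutation p = 0.1 each, two-sided, the smallest that 3 against 3 can give). The Itgax ratio was 0.73 higher on the log2 scale with IL-23 than with GFP in WT, and that of Fscn1 0.98 higher, without overlap for either (exact permutation p = 0.1 each). Cd86 had a ratio 1.05 lower on the log2 scale with IL-23 than with GFP in WT (difference -1.05, exact permutation p = 0.1), also without overlap, although its own level did not differ detectably. For Cd207 the 3 comparisons overlapped, with Mdl-1-/- libraries at -2.74, -4.67 and -2.83 on the log2 scale.

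The groups did not overlap for 3 of 6 members in WT IL-23 against GFP, where 74.8% of all tested genes showed no overlap (4.08% higher and 70.7% lower). They did not overlap for 2 of 6 between Mdl-1-/- and WT ears with IL-23, Epcam higher and Fscn1 lower, where 23.8% of all tested genes showed none (18.3% higher and 5.58% lower); for Fscn1 the nearest libraries of both groups stood at -3.74. They did not overlap for 3 of 6 between Mdl-1-/- ears with IL-23 and WT ears with GFP, Epcam and Fscn1 higher and Cd86 lower, where 73.5% of all tested genes showed none (2.41% higher and 71.1% lower). With 3 libraries a group, none of these ratios could reach an exact permutation p under 0.05.

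**Figure D3:**
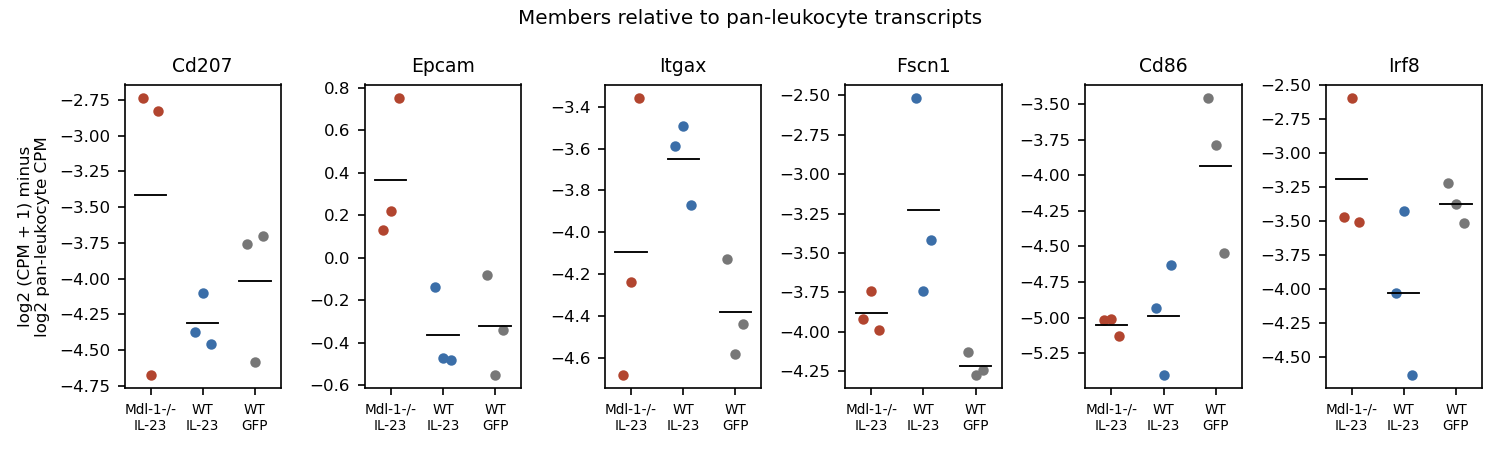
Level of each tested member relative to pan-leukocyte transcripts in every library. The vertical axis is log2 of CPM plus 1, minus log2 of the summed CPM of 5 pan-leukocyte markers, and each panel has its own range; points are libraries and bars are means. Epcam is above 0 only in the 3 Mdl-1-/- libraries.

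The 13 other Langerhans cell genes were all tested. With IL-23 in WT, 6 rose and none fell (median log2 fold change 0.59), beside 22.9% and 21.7% of all tested genes. The rises of Il34, Csf1r and Cdh1 were lost under 6, 4 and 1 of 19 alternatives. Cd24a, a sialoglycoprotein of Langerhans cells and keratinocytes, averaged 261 ± 27.5 CPM with IL-23 and 66.6 ± 4.61 CPM with GFP in WT (3.92-fold, edgeR adjusted p = 8.41e-07). Mfge8, a secreted protein that bridges dying cells to phagocytes, rose 2.66-fold (adjusted p = 2.66e-05), and Ly75, the antigen uptake receptor DEC-205, rose 4.08-fold (adjusted p = 0.000139). Ly75 had 35, 42 and 64 counts in Mdl-1-/- ears with IL-23, 43, 59 and 42 in WT ears with IL-23, and 23, 15 and 14 in WT ears with GFP. Between genotypes under IL-23, 1 of 13 was called, beside 17.7% of all tested genes (10.1% as lower and 7.58% as higher). Cd24a was 1.48-fold lower in Mdl-1-/- ears, at 176 ± 43.5 CPM against 261 ± 27.5 CPM in WT ears (edgeR adjusted p = 0.0256). That call was lost without WT IL-23 library 2 (0.0634) or 3 (0.099) and without Mdl-1-/- library 1 (0.119) or 3 (0.111), and with library totals as the only scaling (0.0663). Against WT with GFP, 4 of 13 were higher in Mdl-1-/- ears with IL-23, beside 10.2% of all tested genes. They were Cd24a, Mfge8, Ly75 and Sirpa, a myeloid inhibitory receptor (2.14-fold, edgeR adjusted p = 0.00537). Keratinocytes also make Cdh1 and Cd24a, and Il34 is a growth factor gene that is also counted among the growth factors and receptors below. These counts are therefore not of Langerhans cells alone.

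Antigen presentation genes were higher in both groups with IL-23 than in WT ears with GFP. All 6 listed MHC class II genes, which serve peptide display to CD4 T cells, rose with IL-23 in WT and were higher in Mdl-1-/- ears with IL-23 than in WT ears with GFP, with medians of 1.82 and 1.97 on the log2 scale. Over all tested genes, 22.9% and 10.2% were called as higher in these comparisons. H2-Aa averaged 161 ± 29.1 CPM in Mdl-1-/- ears with IL-23, 135 ± 22.3 CPM in WT ears with IL-23 and 40.5 ± 10.8 CPM in WT ears with GFP. None of the 6 was called between genotypes under IL-23 by edgeR, DESeq2 or limma voom, where edgeR called 17.7% of all tested genes. Of the 6, 0 had an unadjusted edgeR p under 0.05 (median log2 difference 0.17). Ciita, the transactivator of these genes and a member of the shared dendritic cell list, averaged 28.2 ± 8.97 CPM in Mdl-1-/- ears with IL-23, 18.9 ± 5.16 CPM in WT ears with IL-23 and 7.28 ± 0.471 CPM in WT ears with GFP, and was higher in both than with GFP (edgeR adjusted p = 0.000141 for Mdl-1-/- and 0.000782 for WT). B cells and macrophages carry MHC class II as well, and activated keratinocytes can.

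Of the type 1 conventional dendritic cell genes, 5 of 10 could be tested and 1 rose with IL-23 in WT. Over all tested genes, 22.9% rose. Xcr1, the chemokine receptor that marks this type, had 6, 15 and 13 counts in Mdl-1-/- ears with IL-23, 16, 14 and 8 in WT ears with IL-23, and 3, 0 and 5 in WT ears with GFP. The rise in WT was 6.69-fold (edgeR adjusted p = 0.00257); against GFP, Mdl-1-/- ears with IL-23 were 5.56-fold higher (adjusted p = 0.0148, and 0.0709 without Mdl-1-/- library 2). Counts of Xcr1 reached 10 only in libraries with IL-23, so it passed the count filter through the groups where it was high. Clec9a, another marker of this type, had at most 2 counts in a library. Among type 2 genes 8 of 10 were tested. With IL-23 in WT, 1 of these 8 rose and 1 fell, beside 22.9% and 21.7% of all tested genes. Between genotypes under IL-23, 1 was higher in Mdl-1-/- ears and none lower, beside 7.58% and 10.1%. Against WT ears with GFP, 2 (Sirpa and Notch2) were higher in Mdl-1-/- ears with IL-23, beside 10.2%. Itgam, the integrin chain CD11b, which monocytes and neutrophils carry too, rose 3.49-fold with IL-23 in WT (edgeR adjusted p = 0.00135). Mgl2, a lectin of dermal type 2 dendritic cells and macrophages, averaged 13.3 ± 5.77 CPM in Mdl-1-/- ears with IL-23, 5.58 ± 1.55 CPM in WT ears with IL-23 and 10.9 ± 3.77 CPM in WT ears with GFP. It fell with IL-23 in WT (log2 fold change -0.98, edgeR adjusted p = 0.0352) and was 2.42-fold higher in Mdl-1-/- than in WT ears with IL-23 (adjusted p = 0.0248). The fall was lost without GFP library 1 (0.175), WT IL-23 library 1 (0.136) or 2 (0.0764), and the genotype difference without WT IL-23 library 1 (0.0787) or 2 (0.0719) or Mdl-1-/- library 1 (0.129) or 3 (0.0505). With limma voom both calls were lost (0.0631 and 0.0533), and with DESeq2 the fall was (0.0556).

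In the shared conventional dendritic cell list, 4 of 7 tested genes rose and 1 fell with IL-23 in WT, and 1 was higher in Mdl-1-/- than in WT ears with IL-23. Over all tested genes, 22.9% rose and 21.7% fell with IL-23 in WT, and 7.58% were higher in that genotype comparison. The rises of Jaml and Spi1 were lost under 9 and 7 of 18 alternatives. Cst3, which encodes the protease inhibitor cystatin C and is made by many cell types, was the gene that fell: it averaged 277 ± 24.7 CPM in Mdl-1-/- ears with IL-23, 133 ± 4.59 CPM in WT ears with IL-23 and 271 ± 75.9 CPM in WT ears with GFP. It was 2.03-fold lower with IL-23 than with GFP in WT (edgeR adjusted p = 0.000291) and 2.08-fold higher in Mdl-1-/- than in WT ears with IL-23 (adjusted p = 0.00216). Of the plasmacytoid list, 4 of 10 were tested, and Siglech, a lectin gene that marks these cells, had at most 4 counts in a library. With IL-23 in WT, 1 rose and 1 fell: Ccr9, a chemokine receptor also found on T cells, was 2.73-fold higher than with GFP (edgeR adjusted p = 0.000505), and Tcf4, a factor that plasmacytoid cells need and many other cells make, was 2.24-fold lower (adjusted p = 1.75e-05). Tcf4 averaged 143 ± 25.4 CPM in Mdl-1-/- ears with IL-23, 104 ± 7.81 CPM in WT ears with IL-23 and 233 ± 11.4 CPM in WT ears with GFP. It was 1.38-fold higher in Mdl-1-/- than in WT ears with IL-23 (edgeR adjusted p = 0.0384), a call that leaving out GFP library 3 (0.0501), any 1 WT IL-23 library (0.0604 to 0.113) or Mdl-1-/- library 1 (0.202) or 3 (0.0606) ended. Against WT ears with GFP, Tcf4 was 1.63-fold lower in Mdl-1-/- ears with IL-23 (edgeR adjusted p = 0.00357).

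The mature dendritic cell list had 13 of 23 genes tested; Ccr7, Cd40, Cd80, Pdcd1lg2, Ccl22, Ccl17, Il12b, Cd70, Il4i1 and Apol7c were too low. With IL-23 in WT, 6 rose and 1 fell, beside 22.9% and 21.7% of all tested genes. The rises of Traf1 and Tmem123 were lost under 4 of 18 and 1 of 19 alternatives. Slco5a1 was the gene that fell, 13.4-fold (edgeR adjusted p = 0.00259). It had 4, 1 and 0 counts in WT ears with IL-23 and 57, 9 and 39 in WT ears with GFP. Cd274, the inhibitory ligand PD-L1, rose 3.42-fold (edgeR adjusted p = 0.000462), and Icosl, the ligand of ICOS, rose 5.79-fold (adjusted p = 0.00103). Icosl had 4, 6 and 3 counts in Mdl-1-/- ears with IL-23, 10, 18 and 19 in WT ears with IL-23, and 3, 4 and 5 in WT ears with GFP, so that Mdl-1-/- libraries with IL-23 and GFP libraries overlapped below the WT libraries with IL-23. Between genotypes under IL-23, 1 of the 13 was lower and 1 higher (median log2 difference 0.01), beside 10.1% and 7.58% of all tested genes. Icosl was the lower one, 3.98-fold below WT in Mdl-1-/- ears (edgeR adjusted p = 0.0163), a call lost without WT IL-23 library 3 (0.0861) and without Mdl-1-/- library 1 (0.0618) or 3 (0.0657). Counts of Icosl reached 10 only in WT libraries with IL-23, so it passed the count filter through the group where it was high. That favoured both of its calls, which are a description of this gene only. Il15ra, the receptor chain that presents IL-15, was the higher one, at 27.8 ± 10.6 CPM in Mdl-1-/- ears against 8.33 ± 2.13 CPM in WT ears with IL-23 (3.30-fold, edgeR adjusted p = 0.0471). Leaving out GFP library 3 (0.0574) or any 1 library of the groups with IL-23 (0.0615 to 0.157) ended its call. The receptor of Icosl, Icos, on T cells, had 34, 53 and 35 counts in Mdl-1-/- ears with IL-23, 35, 93 and 65 in WT ears with IL-23, and 8, 8 and 8 in WT ears with GFP. Icos rose 11.9-fold with IL-23 in WT (edgeR adjusted p = 6.8e-06) and was 6.77-fold higher in Mdl-1-/- ears with IL-23 than in WT ears with GFP (adjusted p = 0.00035). The 8 T cell markers summed to 9.84 to 14.4 CPM in Mdl-1-/- ears with IL-23, 9.4 to 21.2 CPM in WT ears with IL-23 and 9.9 to 11.9 CPM in WT ears with GFP. Of the 5 tested, 1 (Trac) rose and none fell with IL-23 in WT. The part of T cells in the Icos result was not tested. Cd28 and Ctla4, the receptors of Cd86, were too low to be tested.

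Among growth factors and receptors, 4 of 8 tested genes rose and 1 fell with IL-23 in WT. Over all tested genes, 22.9% rose and 21.7% fell. Kitl was the gene that fell, 3.45-fold (edgeR adjusted p = 5.12e-05). Among the rises, those of Il34 and Csf1r were lost under 6 and 4 of 19 alternatives. Csf2rb, the signalling chain of the GM-CSF receptor, which neutrophils, macrophages and dendritic cells share, had 71, 62 and 34 counts in Mdl-1-/- ears with IL-23, 100, 123 and 97 in WT ears with IL-23, and 26, 33 and 30 in WT ears with GFP. The 3 groups did not overlap. Csf2rb rose 5.35-fold with IL-23 in WT (edgeR adjusted p = 5.09e-06) and was 2.13-fold lower in Mdl-1-/- than in WT ears with IL-23 (adjusted p = 0.00785); both calls held under every alternative run. Csf2, the GM-CSF gene, had no count in any library, which allows up to 0.535 to 0.794 CPM. Between genotypes, 2 of 8 were lower and 1 higher in Mdl-1-/- ears, beside 10.1% and 7.58% of all tested genes. The other lower one, Csf2ra (1.98-fold, edgeR adjusted p = 0.0459), lost its call under 9 of 19 alternatives. Kitl was the higher one (1.93-fold, edgeR adjusted p = 0.0212), and its call was lost under 3 of 19.

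Of the partner and related transcription factors, 7 of 12 tested genes rose and 1 fell with IL-23 in WT. Over all tested genes, 22.9% rose and 21.7% fell. Zeb2 was the gene that fell, 2.58-fold (edgeR adjusted p = 0.00283). Among the rises, those of Irf1 and Spi1 were lost under 7 of 19 and 7 of 18 alternatives. Junb, an AP-1 subunit, averaged 133 ± 29.4 CPM in Mdl-1-/- ears with IL-23, 189 ± 30.3 CPM in WT ears with IL-23 and 63.1 ± 7.86 CPM in WT ears with GFP (log2 fold change 1.58 with IL-23 in WT, edgeR adjusted p = 5.88e-06). Irf9, which carries interferon signals to the nucleus, rose 2.88-fold (adjusted p = 0.000195). Between genotypes under IL-23, 2 of 12 were called, beside 17.7% of all tested genes. Both were lower in Mdl-1-/- ears: Ikzf1, a lymphoid and myeloid zinc finger factor (2.23-fold, edgeR adjusted p = 0.0292), and Nfil3, a basic leucine zipper factor that type 1 dendritic cells need (2.07-fold, adjusted p = 0.0359). Leaving out any 1 of WT IL-23 library 2 or 3 or Mdl-1-/- library 1 or 3 ended both calls (adjusted p from 0.0687 to 0.144), and leaving out Mdl-1-/- library 2 ended that of Ikzf1 (0.0712). With library totals as the only scaling both were lost (0.0518 for Ikzf1 and 0.0659 for Nfil3), and limma voom did not call Ikzf1 (0.0772).

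**Figure D4:**
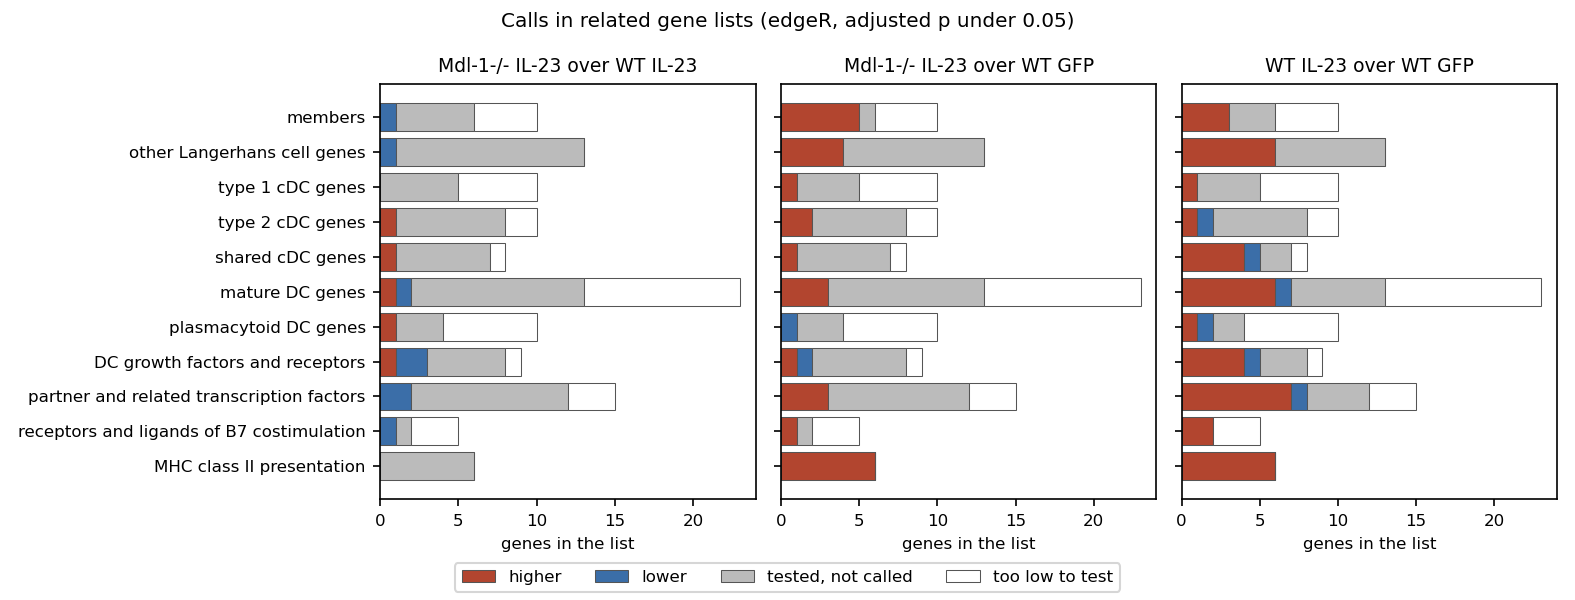
Calls in the members and 10 related gene lists. Each bar is a list, its length the number of genes in it, divided into genes called higher, called lower, tested without a call, and too low to test; each title names the group on top of the fold change first, and DC and cDC stand for dendritic cell and conventional dendritic cell. All 6 MHC class II genes are higher in both groups with IL-23 than in WT ears with GFP. None of them is called between genotypes under IL-23, where 17.7% of all tested genes were called.

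For Cd207, the genes of the whole table whose profile over the 9 libraries lay nearest to its own were found by the root mean square difference of log2 CPM, each gene centred on its mean. The nearest were Fndc9 (0.352), Adh6a (0.499), Neu3 (0.514), Lipk (0.517) and Zmat4 (0.520), beside a median of 0.993 over all tested genes. Fndc9 had 33, 12 and 32 counts in Mdl-1-/- ears with IL-23, 17, 17 and 16 in WT ears with IL-23, and 9, 7 and 12 in WT ears with GFP. All 5 had their lowest Mdl-1-/- value in library 2, as Cd207 did, and their highest value of all in Mdl-1-/- library 3, whereas that of Cd207 was in library 1. These genes were chosen for likeness, so their values are a description without a test.

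**Figure D5:**
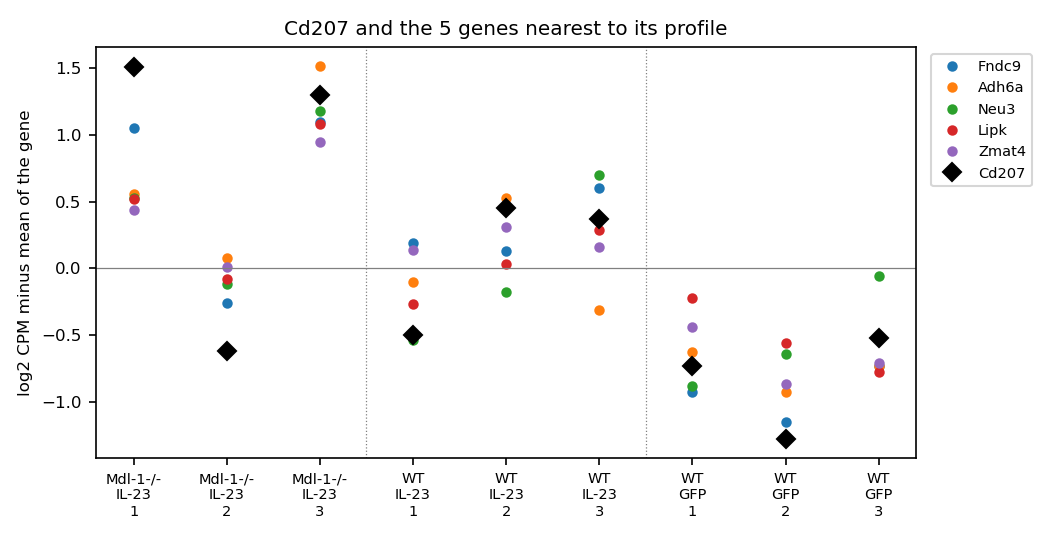
Cd207 and the 5 genes nearest to it over the 9 libraries. The vertical axis is log2 CPM minus the mean of the gene, and dotted lines separate the groups; diamonds are Cd207. Mdl-1-/- library 2 lies below libraries 1 and 3 of its group for Cd207 and for each of the 5 genes.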

How the data were processed

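The authors deposited raw read counts by Ensembl gene in 3 tables, 1 per pairing of groups. Per the submitters' processing notes, STAR 2.7.0a, featureCounts and edgeR were used, with GRCh38.p6 named as the build, a human name beside mouse gene identifiers, so the alignment build is uncertain. The handling of strand and of multi-mapped reads is not given in the sources used here. Log2 fold changes with p-values and false discovery rates stand in the authors' deposited edgeR tables, of which 1 gene is quoted.

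The tables, identical where they share libraries, were joined into 9 libraries. Symbols and positions come from GENCODE M21 (GRCm38). Genes kept by filterByExpr (minimum count 10, minimum total 15) went into edgeR 4.0.16 (R 4.3.3) with TMM scaling, 1 model of 3 group means, robust quasi-likelihood F-test, 6 residual degrees of freedom. SEs derive from the F statistic. On simulated counts, with far fewer genes changed than were called here, 49% to 56% of 2-fold and 83% to 91% of 4-fold changes were called. Of the calls, 5.77% to 6.9% were false. Alternatives were other scalings, DESeq2 1.42.0, limma 3.58.1 voom, other filters, non-robust dispersions, fewer groups, a replicate block and leaving out each library. Intervals and limits cover counting error only. Libraries of a group differed by more than sampling noise.

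The members and the 20 other lists were chosen with earlier results of these data known. All members are named; from each other list at most the 4 called genes with the smallest adjusted p in a comparison are named. Genes named outside that rule (Clec9a, Siglech, Csf2, Cd28, Ctla4, Cd79a and the untested mature genes) were chosen after their values were seen. So were Il34, Csf1r, Jaml, Spi1, Irf1, Traf1 and Tmem123 where they are named because alternatives ended the call of their rise. Promoters were searched for 6 motifs.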

Additional observations from a re-analysis of the deposited data

How the results depend on the processing

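Of 328 refits of a member under an alternative, 303 kept direction and side of the threshold, 15 lost a call, 5 gained one and 5 turned sign, all of Cd86, which was never called. Those were 0.01 between Mdl-1-/- and WT ears with IL-23 without WT IL-23 library 3, and, for IL-23 against GFP in WT, -0.11 with upper-quartile scaling, -0.37 with library totals, -0.33 without GFP library 3 and -0.57 without WT IL-23 library 3 (log2). Over single libraries left out, Cd86 ranged from -0.91 to 0.01 between Mdl-1-/- and WT ears with IL-23 and from -0.57 to 0.34 for IL-23 against GFP in WT.

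Members called, 3 in WT IL-23 against GFP, 1 in Mdl-1-/- against WT under IL-23 and 5 in Mdl-1-/- IL-23 against WT GFP, became 1, 0 and 2 with a minimum count of 30, which left 2 members to test. Library totals gave 2 in Mdl-1-/- against WT, and limma voom 2 in Mdl-1-/- against GFP. Leaving out a library gave 0 to 2 in Mdl-1-/- against WT and 3 to 5 in Mdl-1-/- against GFP. Over all genes, 2439 and 2359 calls in these comparisons ranged over 1128 to 2802 and 1340 to 2580 when a library was left out. With Ptprc alone as denominator, ratios without overlap numbered 1 in Mdl-1-/- against WT (2 with all 5 markers) and 1 in Mdl-1-/- against GFP (3); leaving out a library gave 2 to 4 in Mdl-1-/- against WT. What lies behind these shifts was not tested, except where fewer members or libraries entered.

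Scaling moved the direction of calls over all genes. The share called as higher was 51.3%, 42.9% and 59.4% in WT IL-23 against GFP, Mdl-1-/- against WT and Mdl-1-/- against GFP; it was 38.9%, 53.2% and 43.7% with upper-quartile scaling and 22.7%, 67.0% and 26.1% with library totals. The median log2 fold change of all genes in WT IL-23 against GFP was -0.04, against -0.20 and -0.44 with those scalings; in Mdl-1-/- against GFP it was -0.02, against -0.12 and -0.27, and in Mdl-1-/- against WT it was 0.00, against 0.06 and 0.16.

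The labels do not say that a replicate number marks a shared litter, cage or day, so the numbers were not taken to pair libraries. Deviations of same-numbered libraries correlated at -0.0863 to 0.2301, which with 3 libraries a group cannot settle whether they were paired. A replicate block left the counts of members called at 3, 1 and 5, gave 6257, 2800 and 2682 calls over all genes, and ended the genotype call of Il15ra (edgeR adjusted p = 0.0916). Depth limits the 4 untested members most.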

Other observations

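Irf1, an interferon-induced transcription factor in the list of related factors, had 87, 502 and 450 counts in Mdl-1-/- ears with IL-23, 247, 558 and 351 in WT ears with IL-23, and 147, 79 and 74 in WT ears with GFP. Mdl-1-/- library 1 lay within the range of the GFP libraries and the other two within that of WT IL-23. Samsn1, an adaptor in the mature dendritic cell list, had 32, 47 and 14 counts in Mdl-1-/- ears with IL-23, 61, 71 and 56 in WT ears with IL-23, and 7, 14 and 49 in WT ears with GFP, so that GFP library 3 stood apart from the other two of its group. Both genes were chosen after their values were seen.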
